A study of Oryza sativa Japonica Group with 64 samples.

Results

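The 100 rice genes described here were those of the flag leaf whose transcripts were highest at 08:00 under long days and changed most over the day. Levels were read counts scaled to the total of the library (CPM), averaged at each time over the 4 long-day leaf libraries of that time, 2 of wild type (WT) and 2 of the csa mutant. A gene qualified when its highest mean fell at 08:00 and reached at least 10 CPM. The 1274 genes that met both conditions were ranked by the ratio of the highest to the lowest mean, each with 0.5 CPM added, and the 100 first were kept of the 55986 genes in the leaf table. Before ranking, 7 genes were dropped by name, of which 1 had met both conditions. The genes were thus chosen by the long-day time course of mean CPM, which is given as a description and without a test.

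The study compared WT rice (Oryza sativa ssp. japonica, cultivar 9522) with csa, a mutant of the same crop named after the MYB transcription factor gene CSA (carbon starved anther) in short-day (SD) and long-day (LD) plots. The crop was field-grown, and LD plots kept the summer day of about 14.5 h. SD plots were darkened with film between 18:00 and 6:00 and so had a 12 h day. At anther stage 12, flag leaves were collected every 4 h for 6 times a day, starting at 08:00, and anthers at 16:00 and 04:00. There were 2 libraries per group, 48 from leaves and 16 from anthers. The labels do not say whether replicates came from separate plots or plants, so the p-values measure the spread between these libraries only.

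In a leaf, the hours around dawn are set by 2 inputs, the circadian clock and light itself. The clock is a loop of transcription factors in which LHY acts around dawn and the PRR proteins follow through the day, and light acts through phytochromes and cryptochromes. Morning genes known from leaves of Arabidopsis include those for nitrate reductase, which reduces nitrate to nitrite, and for enzymes of chlorophyll synthesis and photoprotection. Among the 100 morning genes, LOC_Os08g36480 carries the symbol NIA1 (nitrate reductase), and the others are called by their locus identifiers because no annotation at hand pairs these with names.

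Library totals were 12.91 to 20.45 M counts in leaves and 18.05 to 25.96 M in anthers. Of 8 genes that separated the genotypes in anthers and in LD leaves outside 12:00, none a morning gene, the 4 SD 12:00 leaf libraries lay nearer the other genotype in 31 of 32 values, against 5 of 160 in the other SD leaf libraries and 1 of 32 in the LD 12:00 libraries. The 4 libraries labelled SD 12:00 therefore go against their genotype labels. Time comparisons were averaged over both genotypes, and the SD genotype comparison left 12:00 out. A small-subunit gene of Rubisco, LOC_Os12g19381, held 11380 to 39770 CPM in leaves and 203 to 1151 CPM in anthers. The anther gene LOC_Os08g38810 was at 0 counts in all leaf libraries and at 505 to 2189 CPM in anthers. Among the other leaf markers, LOC_Os12g17600 held 6699 to 30200 CPM in leaves and 36.8 to 326 CPM in anthers. LOC_Os11g47970 held 467 to 69650 CPM in leaves and 84.3 to 584 CPM in anthers. LOC_Os01g41710 held 8.29 to 4553 CPM in leaves and 37.0 to 1377 CPM in anthers. Both LOC_Os11g47970 and LOC_Os01g41710 thus overlapped between the tissues.

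In LD leaves the 100 genes together took 5.26% ± 0.35 (SD over libraries, n = 4) of all counts at 08:00. Their share was 2.18% ± 0.14 at 12:00, 0.709% ± 0.139 at 16:00, 0.0611% ± 0.0013 at 20:00, 0.186% ± 0.017 at 00:00 and 1.61% ± 0.18 at 04:00. Their share was thus lowest in the evening and had risen again by 04:00. The lowest mean fell at 20:00 for 62 genes, at 16:00 for 21 and at 00:00 for 17. Levels at 08:00 spanned 22.9 to 4716 CPM with a median of 237.3 CPM, with 13 genes at 1000 CPM or more, 58 from 100 to under 1000 CPM and 29 under 100 CPM. The ratio of highest to lowest mean ran from 42.5 to 2484 (median 82.9), and 44 genes fell under 1 CPM at their lowest time. The last genes kept were LOC_Os05g25370, with a ratio of 42.53, and LOC_Os02g45520, with 42.47, and the next outside were LOC_Os11g42510, with 42.02, and LOC_Os10g38610, with 41.17.

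**Figure D1:**
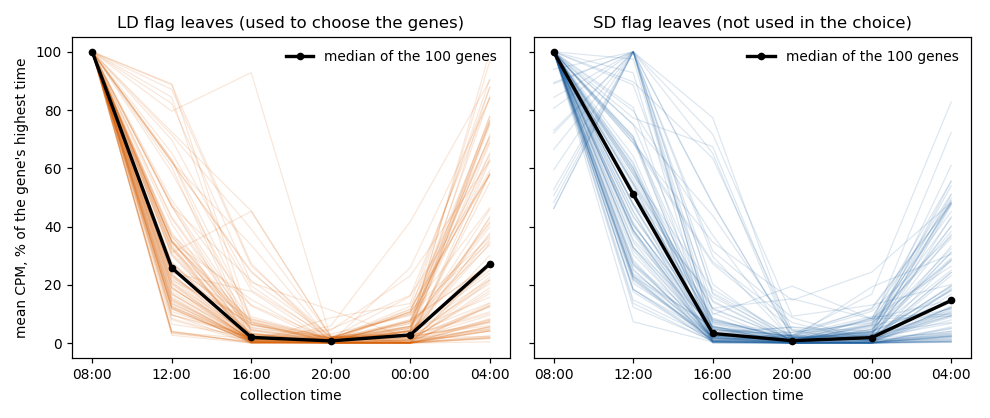
Mean CPM at the 6 collection times, as a percentage of each gene's highest time, for the 100 morning genes in LD leaves (left, the libraries that chose them) and in SD leaves (right), with 1 thin line per gene and the median in black. In LD every line is at 100% at 08:00 by choice, while in SD 86 genes were highest at 08:00 and 14 at 12:00.

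The gene with the largest ratio, LOC_Os01g60830, stood at 2662 and 2206 CPM in WT and at 1667 and 2296 CPM in csa at LD 08:00. At LD 20:00 it stood at 0.263, 0.349, 0.812 and 0.132 CPM in the same order. All libraries at 08:00 lay above those of every other LD time, and the genotypes overlapped. In SD the same gene reached 637 and 385 CPM in WT and 410 and 325 CPM in csa at 08:00. Its SD libraries at 12:00, with 239 to 601 CPM, overlapped those at 08:00, so that the sharp morning maximum of LD was a broader one in SD.

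LOC_Os12g08760 showed the opposite order of photoperiods. Its SD libraries at 08:00 held 4101 and 3754 CPM in WT and 5046 and 4138 CPM in csa, above the 1991 to 3298 CPM of the LD libraries. By SD 12:00 it was at 569 to 1024 CPM and by SD 20:00 at 0.67 to 1.25 CPM. A single csa library at SD 16:00 held 75.1 CPM where the other 3 held 2.30 to 3.29 CPM. At 04:00 the gene was already at 1054 to 2057 CPM in LD and at 395 to 666 CPM in SD, so the 08:00 and 04:00 libraries overlapped in LD and did not in SD.

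LOC_Os03g39610 kept its level longest among the 3 leading genes. In LD it held 4335, 2923, 5479 and 4936 CPM at 08:00 and 3353 to 4392 CPM at 12:00, and in SD 5115, 3577, 3049 and 3214 CPM at 08:00 and 5309 to 7346 CPM at 12:00. The SD libraries at 12:00 all lay above those at 08:00. It then fell to 2.37 to 4.23 CPM at 00:00 in LD and to 3.62 to 7.60 CPM in SD.

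The next 7 by ratio, LOC_Os07g08150, LOC_Os02g04510, LOC_Os03g27019, LOC_Os03g12700, LOC_Os05g50930, LOC_Os07g08160 and LOC_Os01g62810, had LD means of 257.5 to 1246 CPM at 08:00. LOC_Os03g27019 and LOC_Os03g12700 stood at like levels in both photoperiods at 08:00, the first at 1246 ± 321 CPM in LD and 1429 ± 197 CPM in SD (SD over libraries, n = 4 each) and the second at 456 ± 34 and 482 ± 24 CPM. LOC_Os07g08150 was at 773 ± 245 CPM in LD and 141 ± 33 CPM in SD, and its neighbour LOC_Os07g08160 at 377 ± 113 and 91.2 ± 26.4 CPM. For this neighbouring pair the lowest LD library at 08:00 lay above the highest SD library.

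**Figure D2:**
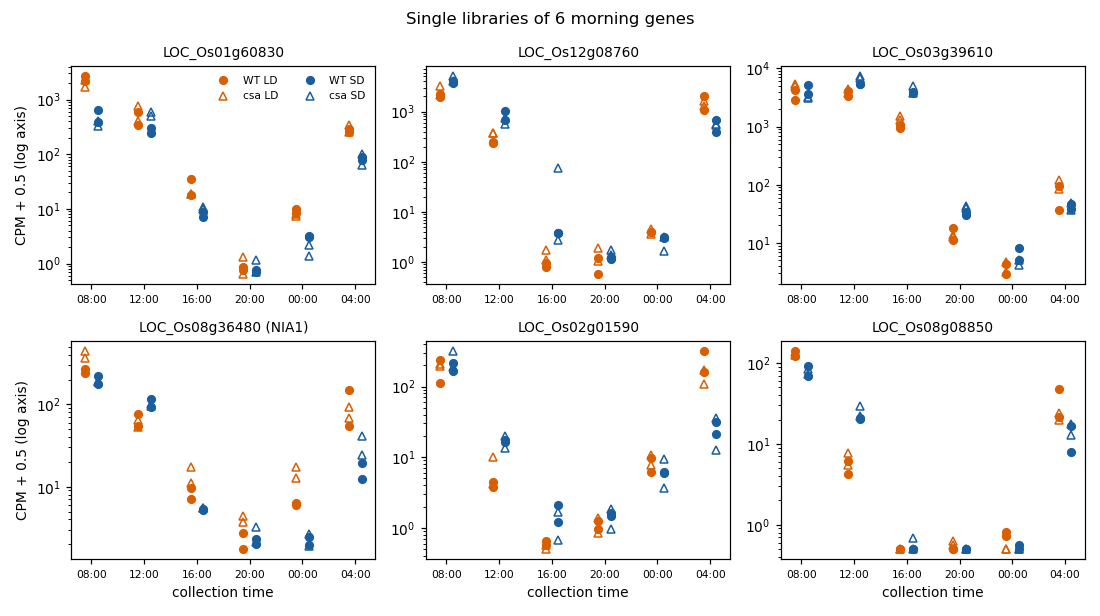
CPM plus 0.5 on a log axis in each of the 48 leaf libraries for 6 of the morning genes, by collection time, with LD in orange, SD in blue, WT as filled circles and csa as open triangles. LOC_Os01g60830 was higher in LD than in SD at 08:00, LOC_Os12g08760 lower, and LOC_Os08g08850 was at or near 0 from 16:00 to 00:00.

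The SD leaves were libraries that the choice did not use, and they gave the time comparisons that could be tested. All 100 genes differed between times in SD by edgeR's quasi-likelihood test at an adjusted p under 0.05, where 89.4% of the 22095 genes tested in leaves did. All 100 were higher at 08:00 than the mean of the other 5 times, against 33.8% of all tested genes. The median log2 fold was 4.55 for the morning genes, ranging from 1.39 to 8.65, and -0.03 for all genes. With library totals in place of the TMM scaling, which equalises the bulk of genes between libraries, the median of all genes moved by -0.48 on the log2 scale and all 100 morning genes were still higher, while the share of higher genes among all calls went from 49.1% to 26.3%.

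The highest SD mean CPM fell at 08:00 for 86 of the 100 genes and at 12:00 for 14, and of all tested genes 13.6% were highest at 08:00. In the TMM-scaled fit the log2 fold of 08:00 over 12:00 was above 0 in 89 genes and below 0 in 11. In 70 of the morning genes all 4 libraries at 08:00 lay above all 20 other SD libraries, as they did in 4.18% of all tested genes. Together the 100 genes took 4.75% ± 0.12 of all counts at SD 08:00, 3.15% ± 0.10 at 12:00, 1.29% ± 0.14 at 16:00, 0.0918% ± 0.0062 at 20:00, 0.0985% ± 0.0040 at 00:00 and 0.784% ± 0.069 at 04:00 (n = 4 each). The lowest mean fell at 20:00 for 61 genes, at 00:00 for 29 and at 16:00 for 10. The coefficient of variation of the 4 libraries at SD 08:00 had a median of 15.4% and was highest, at 83.3%, for LOC_Os07g05360, which held 48.6, 96.9, 34.5 and 215.7 CPM.

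The genes with the largest SD folds held under 3 CPM in every SD library at 20:00 and 00:00. LOC_Os08g08850 held 67.6, 91.5, 83.3 and 73.2 CPM at SD 08:00 and 0 counts in all 4 libraries at 20:00. Against a floor of 3 counts over those 4 libraries it was at least 1764-fold higher at 08:00. LOC_Os01g17396 held 154.1 to 197.7 CPM at SD 08:00 and 0 counts in the 4 libraries at 00:00, at least 3867-fold less, and LOC_Os01g36720 held 12.2 to 19.8 CPM and 0 counts at 20:00, at least 386-fold less. Their 08:00 libraries lay above all libraries of the other SD times. The fitted log2 folds over the other 5 times, 8.65, 8.64 and 8.17, depend on the prior count of the fit, as they do for 13 genes with a group of 2 SD libraries at 0 counts, and the median over the 100 genes was 4.53 with those 13 at a floor of 3 counts per group. LOC_Os03g56930 (log2 fold 7.98 ± 0.26, SE), LOC_Os12g08760 (7.91 ± 0.28) and LOC_Os03g18060 (7.82 ± 0.18, with a floor value of 7.53) came next.

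The smallest SD folds included genes with a higher evening level in SD than in LD. LOC_Os03g06630 held 186, 159, 131 and 126 CPM at SD 08:00 and 18.6 to 27.0 CPM at SD 20:00, where LD libraries held 570 to 772 CPM at 08:00 and 12.2 to 16.5 CPM at 20:00. Its log2 fold of SD 08:00 over the other times was 2.05 ± 0.10 (SE). LOC_Os11g38260 had the lowest fold, 1.39 ± 0.16, with 96.0, 57.9, 59.7 and 49.1 CPM at SD 08:00 and 78.2 to 98.1 CPM at 16:00, so that these 2 times overlapped. LOC_Os01g21250 (2.78), LOC_Os09g28390 (3.04), LOC_Os10g40720 (3.07) and LOC_Os05g50550 (3.11) followed. Of these LOC_Os01g21250, LOC_Os09g28390 and LOC_Os05g50550 were highest at SD 12:00 by mean CPM, which is not TMM-scaled. Their fitted log2 folds of 08:00 over 12:00 were -0.90, -0.29 and 0.09. The last 2 were not called (edgeR, adjusted p = 0.0576 and 0.596). LOC_Os10g40720 was unequal between replicates, at 14.5, 23.2, 39.4 and 26.0 CPM at SD 08:00 and from 5.90 to 41.7 CPM at 12:00.

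Between 04:00 and 08:00 all 100 genes rose in SD, against 26.2% of all genes tested, with a median log2 fold of 3.06 and a range of 0.74 to 9.16 (edgeR, adjusted p under 0.05). In 97 of them all 4 libraries at 08:00 lay above all 4 at 04:00, which was so for 11.3% of all genes. LOC_Os03g56930 held 237, 163, 169 and 192 CPM at SD 08:00 and 0.275, 1.71, 0.297 and 0.128 CPM at SD 04:00, a log2 fold of 9.16. LOC_Os01g36720 (8.69) and LOC_Os01g17396 (8.06) followed. At the other end LOC_Os09g38090 held 560, 383, 391 and 385 CPM at SD 08:00 and 379, 315, 350 and 380 CPM at 04:00, a log2 fold of 0.74. With library totals this gene's fold was 0.27 (edgeR, adjusted p = 0.269), the other 99 genes were still called higher, and the share of higher genes among all calls went from 44.9% to 21.3%.

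The step between 04:00 and 08:00 was smaller in LD than in SD for 74 of the 100 genes, a description without a test. The LD means at both times were among the values that chose the genes. No share over all genes stands beside the counts given here, so they do not show a trait particular to these genes. In ratios of mean CPM with 0.5 added, 33 of the 100 genes rose less than 2-fold between 04:00 and 08:00 in LD, and 9 did in SD. A rise of 5-fold or more was seen in 39 genes in LD and 56 in SD. Of the 33 genes that rose less than 2-fold in LD, 9 rose less than 2-fold in SD, 16 rose 2 to under 5-fold and 8 rose 5 to under 20-fold. LOC_Os02g01590 is an example, with 238, 113, 198 and 210 CPM at LD 08:00 and 318, 160, 109 and 172 CPM at LD 04:00. In SD it held 217, 164, 317 and 186 CPM at 08:00 and 20.9, 30.5, 12.2 and 35.3 CPM at 04:00, so that these 2 times overlapped in LD and were apart in SD.

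**Figure D3:**
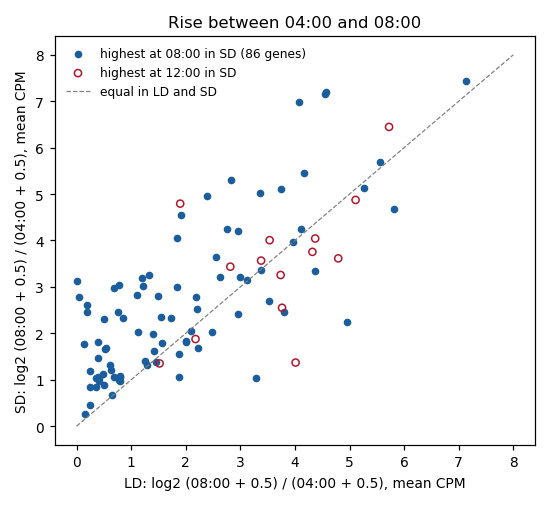
Rise between 04:00 and 08:00 for each of the 100 morning genes, as log2 of the ratio of mean CPM with 0.5 added, in LD leaves (horizontal) and SD leaves (vertical), with the 14 genes highest at 12:00 in SD as open red circles. Of the 100 points 74 lie above the dashed line of equal rise and 26 below it. The LD means were among the values that chose the genes.

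Levels in SD are set beside those in LD here without a test, since LD chose the genes. The median ratio of the SD mean to the LD mean over the 100 genes, with 0.5 CPM added, was 0.479 at 04:00, 0.738 at 08:00, 1.48 at 12:00, 1.22 at 16:00, 0.970 at 20:00 and 0.679 at 00:00. For all tested genes the medians at the same times were 1.06, 1.03, 1.004, 0.917, 0.887 and 1.03, so the morning genes lay below all genes at 00:00, 04:00 and 08:00 and above them at 12:00, 16:00 and 20:00. At 04:00 6 of the 100 genes had a higher mean in SD than in LD, against 58.2% of all tested genes. At 08:00 26 were higher, against 53.4%, and at 12:00 78 were higher, against 50.45%. At 16:00 68 were higher, against 39.5%, and at 00:00 25 were, against 53.8%. At 20:00 44 were higher and 53 lower, where 33.5% of all tested genes were higher. The added 0.5 CPM draws ratios of low levels towards 1, and 20:00 was the lowest SD time for 61 of the genes. At 08:00 2 genes were at least 2-fold higher in SD and 23 had 0.5 times the LD level or less. The choice asked for the highest LD mean at 08:00 and favoured a low LD mean at another time. Ratios to LD are thus not free of the choice, and the contrast with all genes was not tested.

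Most genes were lower at 12:00 than at 08:00 in SD. The level at 08:00 was higher in 81 genes, against 27.5% of all tested genes, and lower in 5, against 27.8% (edgeR, adjusted p under 0.05), with a median log2 fold of 1.17. The 5 that were higher at 12:00 were LOC_Os01g21250 (log2 fold of 08:00 over 12:00 of -0.90), LOC_Os09g26670 (-0.87), LOC_Os04g41560 (-0.76), LOC_Os11g38260 (-0.69) and LOC_Os03g39610 (-0.56). LOC_Os04g41560 held 673, 528, 447 and 398 CPM at SD 08:00 and 638, 860, 1262 and 1279 CPM at SD 12:00, and its groups overlapped. LOC_Os09g26670 held 19.8, 40.6, 31.2 and 28.8 CPM at 08:00 and 53.4 to 72.0 CPM at 12:00, with no overlap.

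Some of these 5 calls rested on single libraries. Without WT SD 08:00 replicate 2 the adjusted p was 0.13 for LOC_Os03g39610 and 0.0715 for LOC_Os11g38260, and the former was also not called without csa SD 08:00 replicate 1 (0.0751) or csa SD 12:00 replicate 1 (0.0694). With library totals 75 genes were higher and 8 lower at 08:00, and the share of higher genes among all calls went from 49.7% to 36.8%.

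NIA1 (LOC_Os08g36480), the nitrate reductase gene, held 178, 221, 186 and 191 CPM at SD 08:00. At SD 20:00 it held 1.50 to 2.76 CPM and at 04:00 11.9 to 40.5 CPM. The 08:00 libraries lay above all the others, and the log2 fold of 08:00 over the other 5 times was 5.04 ± 0.15 (SE; edgeR, adjusted p = 3.14e-24). Of 5 listed genes of nitrogen assimilation all 5 were higher at SD 08:00 than the mean of the other 5 times. The fitted log2 fold was 1.03 for GS2, the chloroplast glutamine synthetase, and 0.78 for Fd-GOGAT, which makes glutamate from glutamine. By mean CPM, which is not TMM-scaled, both were highest at 04:00 and not at 08:00.

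LOC_Os01g14410, on the list of photoprotection and carotenoid genes, was the other morning gene found on a list. It held 108, 61.4, 93.1 and 77.2 CPM at SD 08:00 and 0 to 0.0619 CPM at 20:00, a log2 fold of 6.00 ± 0.19 over the other times. Its LD libraries at 08:00, with 333, 369, 122 and 227 CPM, lay above all SD libraries. Of the 10 genes on this list 8 were higher and 2 lower at SD 08:00 than at the other times. PSY2, a phytoene synthase at the entry to carotenoid synthesis, was higher by 3.64 and ZEP, the zeaxanthin epoxidase, by 2.25 on the log2 scale, and PSY2 met the first conditions of the choice with an LD ratio of 27.4.

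The other lists held none of the 100 genes. LHY and PRR73 of the clock list were among the 7 genes dropped by name, so neither could be kept whatever its levels. Of 15 genes on the chlorophyll list, which counts NYC1 of chlorophyll breakdown beside genes of synthesis, 8 were higher and 7 lower at SD 08:00. CHLH, a subunit of the magnesium chelatase, was at 4407 ± 250 CPM at 08:00 and 282 CPM at 20:00, a log2 fold of 2.50 over the other times, whereas CHLD and CHLI, the other subunits, were lower by -1.81 and -0.67, and GSA, which makes 5-aminolevulinate, by -2.83. Of 9 clock genes 5 were higher and 3 lower, with LHY at 6330 ± 885 CPM at SD 08:00 and a log2 fold of 5.42, and LHY was highest at 08:00 in SD and at 04:00 in LD. Of 9 genes of light signalling 6 were higher and 3 lower, the latter being the phytochromes PHYA (-0.66), PHYB (-1.24) and PHYC (-1.17), and of 3 genes of photorespiration 2 were higher.

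Few of the 100 genes differed between WT and csa leaves, as did few of all genes. In SD, over the 5 times other than 12:00, none of the 100 differed between the genotypes by edgeR's quasi-likelihood test, where 1.34% of all genes did, and none by DESeq2, with 6 at an unadjusted p under 0.05. The median log2 fold of csa over WT was 0.02, with a range of -0.87 to 0.81. At SD 08:00 alone none was called, against 0.321% of all genes, with 4 at an unadjusted p under 0.05 and none by DESeq2. A p above the threshold does not show that the levels were equal. In SD the share of higher genes among all calls went from 47.1% to 37.0% with library totals.

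The LD leaf libraries are those that chose the genes, by means over both genotypes, so the genotype difference in them is not the contrast of the choice but is not taken from separate libraries either. In LD 3 of the 100 genes were higher in csa, against 1.79% of all genes, and none lower, against 1.63% (edgeR, adjusted p under 0.05), with 19 at an unadjusted p under 0.05. NIA1 held 271 and 237 CPM in WT and 444 and 367 CPM in csa at LD 08:00, and 5.86 and 5.54 CPM in WT and 12.4 and 17.1 CPM in csa at 00:00. Its csa libraries lay above the WT libraries at 08:00, 16:00, 20:00 and 00:00 and overlapped them at 12:00 and 04:00, where WT held 150 and 54.6 CPM. The log2 fold of csa over WT was 0.67 ± 0.14 (SE; edgeR, adjusted p = 0.00548).

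LOC_Os02g10390 was higher by 0.36 (edgeR, adjusted p = 0.0174) and LOC_Os05g06920 by 0.50 (adjusted p = 0.0262) in csa. At LD 08:00 LOC_Os02g10390 held 3057 and 2396 CPM in WT and 3333 and 2911 CPM in csa, and LOC_Os05g06920 509 and 331 CPM in WT and 502 and 635 CPM in csa, with overlap for both. The call of LOC_Os02g10390 was lost without WT LD 16:00 replicate 2 (adjusted p = 0.0561) or WT LD 20:00 replicate 2 (0.0553). The call of LOC_Os05g06920 was lost in 9 of the fits without 1 library, with adjusted p of 0.052 to 0.0671. These were WT LD replicate 2 at 00:00, 04:00, 12:00 and 20:00, WT LD 16:00 replicate 1, and csa LD replicate 2 at 00:00, 04:00, 08:00 and 16:00.

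The number called in LD also moved with single libraries, to 9 without WT LD 04:00 replicate 1 and to 5 without WT LD 20:00 replicate 1. DESeq2 called 11 higher and 1 lower. With library totals the same number, 3, was called, while the median of all genes moved by -0.11 and the share of higher genes among all calls went from 52.3% to 11.8%. With the same LD libraries on 1 side, none of the 100 genes had a genotype difference that itself differed between SD and LD, against 0.204% of all genes (edgeR), with 9 at an unadjusted p under 0.05 and none by DESeq2, and here the share of higher among all calls went from 20.0% to 66.7% with library totals.

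**Figure D4:**
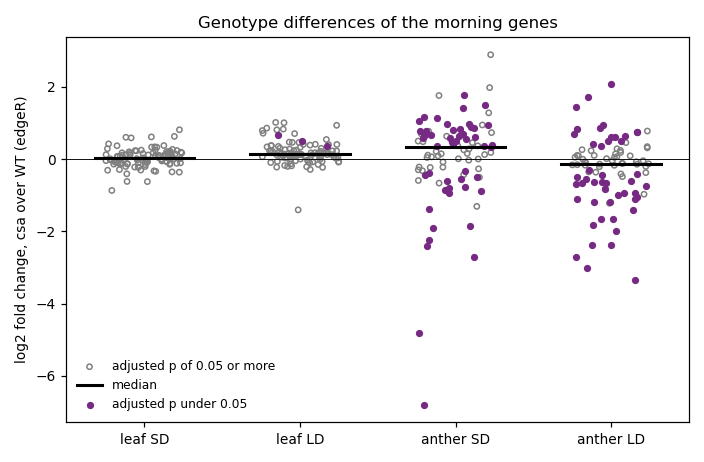
Log2 fold of csa over WT from edgeR for each morning gene in SD leaves, LD leaves, SD anthers and LD anthers, with filled points at an adjusted p under 0.05 and bars at the medians. The leaf comparisons hold 0 and 3 called genes of 100, and the anther comparisons 51 and 47 of the 91 genes tested there.

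Anthers were not used in the choice, and most of the morning genes were expressed there. All 100 had at least 1 count in the 16 anther libraries, 79 had a mean of at least 1 CPM and 53 of at least 10 CPM. The filter on low counts was passed by 91 of them, and by 25203 of the 38063 genes with any count in anthers. No share over all genes stands beside the counts at 1 and 10 CPM. In such bulk samples, fewer cells of a type and less RNA per cell cannot be told apart. The summed level of 4 leaf marker genes in anthers was 445 to 2032 CPM in WT SD, 1573 to 2763 CPM in csa SD, 939 to 1457 CPM in WT LD and 1055 to 1691 CPM in csa LD, with none of the 4 at 0, and 969 to 2763 CPM at 16:00 and 445 to 2247 CPM at 04:00. The summed level of 3 anther markers was 1560 to 2809 CPM in WT SD, 735 to 881 CPM in csa SD, 2114 to 2993 CPM in WT LD and 1013 to 1444 CPM in csa LD. The leaf markers LOC_Os11g47970 and LOC_Os01g41710 each overlapped between leaves and anthers, so neither is specific to leaf by itself. The sum of the 4 leaf markers did not overlap between the tissues. In SD leaves that sum was 39200 to 113900 CPM in WT and 46460 to 107900 CPM in csa. In LD leaves it was 26540 to 98360 CPM in WT and 29840 to 122400 CPM in csa. The part of these marker levels in the anther results was not tested.

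In anthers more morning genes were higher at 04:00 than were lower. Of the 91 genes 48 were higher at 04:00 than at 16:00, against 10.1% of all genes tested in anthers, and 10 were lower, against 10.7% (edgeR, adjusted p under 0.05), with a median log2 fold of 0.62. In 16 genes all 8 libraries at 04:00 lay above all 8 at 16:00, against 0.559% of all genes, and in 2 all lay below, against 0.996%. The mean over SD and LD leaf libraries was higher at 04:00 than at 16:00 for 70 of the tested genes. Of these, 41 were higher and 2 lower in anthers. Of the 21 whose leaf mean was lower at 04:00, 8 were lower and 7 higher. The leaf means include the LD libraries that chose the genes. No share over all genes stands beside this split, so it does not show that anthers follow leaves.

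LOC_Os05g50930 rose most, from 0.388 to 1.51 CPM at 16:00 to 8.83 to 34.8 CPM at 04:00, with no overlap and medians over 8 libraries of 0.930 and 24.7 CPM. Its log2 fold was 4.64 ± 0.13 (SE; edgeR, adjusted p = 3.96e-10). LOC_Os01g13390 (2.06), LOC_Os05g38270 (1.80) and LOC_Os04g37710 (1.22) rose too, each with all libraries at 04:00 above those at 16:00. LOC_Os01g31360 fell by 2.50 on the log2 scale, from 59.5 to 164.9 CPM at 16:00 to 14.8 to 27.0 CPM at 04:00, and LOC_Os07g05360 fell by 2.57, both with no overlap. LOC_Os07g37550 fell by 1.91 and LOC_Os02g10390 by 1.61, and for these genes the 8 libraries of each time overlapped. Within each genotype and photoperiod, all libraries at 16:00 lay above those at 04:00 for both genes. LOC_Os07g37550 fell from 153.7 and 210.2 CPM to 16.1 and 19.1 CPM in WT SD. In csa LD it fell from 91.9 and 94.3 CPM to 61.0 and 70.7 CPM.

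**Figure D5:**
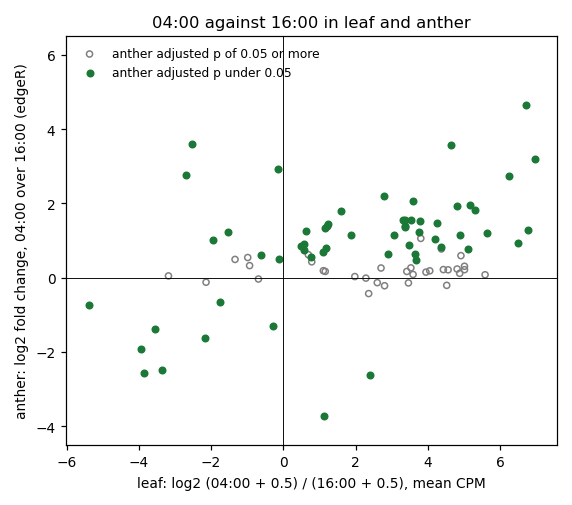
Log2 fold of 04:00 over 16:00 in anthers from edgeR (vertical) against the log2 ratio of the mean CPM with 0.5 added at 04:00 to that at 16:00 in SD and LD leaves together (horizontal), for the 91 morning genes tested in anthers, filled at an adjusted p under 0.05 in anthers. The leaf means include the LD libraries that chose the genes. Of the points right of the vertical line 41 were called higher in anthers and 2 lower.

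The most abundant morning gene in anthers was LOC_Os10g32810. At 16:00 and 04:00 it held 292, 636, 384 and 146 CPM in WT SD and 10.2, 8.39, 17.6 and 19.0 CPM in csa SD. In LD it held 779, 1854, 835 and 1358 CPM in WT and 216, 18.7, 322 and 113 CPM in csa. The csa libraries lay below the WT libraries in each photoperiod, with a log2 fold of -4.81 ± 0.72 in SD (edgeR, adjusted p = 0.000307) and -3.02 ± 0.65 in LD (adjusted p = 0.00443), and replicates differed widely. The next genes by mean level were LOC_Os01g12680 (324 CPM), LOC_Os04g58710 (279 CPM), LOC_Os03g09250 (276 CPM), LOC_Os03g16670 (237 CPM) and LOC_Os10g40720 (232 CPM).

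Many morning genes differed between csa and WT in anthers, as did many of all genes. In SD 32 of the 91 tested were higher in csa, against 25.8% of all genes, and 19 lower, against 21.6% (edgeR, adjusted p under 0.05), with a median log2 fold of 0.33. LOC_Os04g58710 held 137, 131, 184 and 199 CPM in WT SD and 261, 231, 537 and 441 CPM in csa SD, with no overlap and a log2 fold of 1.06. LOC_Os01g16170 (1.15), LOC_Os01g08440 (1.50) and LOC_Os09g31130 (0.96) were also higher in csa. LOC_Os01g08460 held 120, 166, 110 and 154 CPM in WT SD and 42.2, 26.2, 43.6 and 41.4 CPM in csa SD, a log2 fold of -1.91 with no overlap. LOC_Os05g07870 (-2.23), LOC_Os03g12700 (-2.70) and LOC_Os04g43070 (-0.87) were lower as well.

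In LD anthers 16 of the 91 were higher in csa, against 18.7% of all genes, and 31 lower, against 16.5% (edgeR), with a median log2 fold of -0.14. With library totals the share of higher genes among all calls went from 53.2% to 65.6%, and 16 morning genes were higher and 27 lower. Single libraries moved the number of higher genes, to 7 without WT LD 04:00 replicate 2 and to 10 without WT LD 16:00 replicate 2, csa LD 04:00 replicate 2 or csa LD 16:00 replicate 2. LOC_Os09g28390 held 90.2, 113, 164 and 152 CPM in WT LD and 30.8, 17.8, 29.6 and 26.6 CPM in csa LD, with no overlap and a log2 fold of -2.38. LOC_Os03g39760 (-2.70), LOC_Os05g07870 (-1.99) and LOC_Os04g55180 (-1.06) were lower too. LOC_Os09g31130 held 27.2, 16.4, 33.7 and 32.3 CPM in WT LD and 68.2, 86.3, 83.5 and 73.9 CPM in csa LD, a log2 fold of 1.45 with no overlap, and LOC_Os05g50500 (2.08), LOC_Os04g45000 (1.71) and LOC_Os03g09250 (0.95) were higher as well.

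The genotype difference itself differed between SD and LD in 18 of the 91 genes. It was more positive in SD in 15, against 8.15% of all genes, and more negative in 3, against 9.65% (edgeR, adjusted p under 0.05), with a median of 0.30 on the log2 scale. LOC_Os01g16170 held 59.6, 61.5, 85.9 and 74.4 CPM in WT SD and 143, 152, 172 and 177 CPM in csa SD. In LD it held 75.8, 122, 97.7 and 103 CPM in WT and 99.2, 87.4, 98.7 and 123 CPM in csa. The genotypes were apart in SD and overlapped in LD, and the difference of the log2 folds was 1.22 ± 0.19 (SE; edgeR, adjusted p = 0.00519).

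LOC_Os03g12700 went the other way, with 13.6, 7.84, 8.41 and 11.8 CPM in WT SD and 1.57, 2.11, 1.54 and 1.42 CPM in csa SD. In LD it held 3.30, 1.23, 5.15 and 5.13 CPM in WT and 3.21, 3.09, 4.22 and 2.07 CPM in csa. The genotypes were apart in SD and overlapped in LD, with a difference of -2.49 ± 0.44 (edgeR, adjusted p = 0.00648). The number of genes with a more positive difference was 9 without csa LD 04:00 replicate 1, and that with a more negative one was 1 in 5 fits, those without replicate 1 of WT LD 04:00, WT SD 16:00, csa LD 04:00, csa LD 16:00 or csa SD 04:00.

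Between photoperiods, WT anthers had lower levels of many morning genes in SD. Of the 91 tested 36 were lower in SD than in LD, against 14.6% of all genes, and 5 higher, against 14.3% (edgeR, adjusted p under 0.05), with a median log2 fold of -0.43. Without WT LD 16:00 replicate 1 the number higher was 9. LOC_Os09g28390 held 15.4, 34.7, 46.5 and 25.5 CPM in WT SD, below the 90.2 to 164 CPM of WT LD, a log2 fold of -2.12. LOC_Os01g08440 (-1.57), LOC_Os05g08480 (-1.04) and LOC_Os06g21380 (-1.17) were lower as well. The higher genes with the lowest p were LOC_Os01g08020 (0.92), LOC_Os03g12700 (1.56), LOC_Os05g38270 (0.56) and LOC_Os07g05360 (0.99).

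The 100 genes were spread over all 12 chromosomes, from 16 genes on chromosome 1 and 15 on chromosome 3 to 3 each on chromosomes 6, 8 and 12. In the order of loci 6 pairs lay within 5 rows of each other: LOC_Os01g08440 and LOC_Os01g08460, LOC_Os03g14910 and LOC_Os03g14915, LOC_Os03g18060 and LOC_Os03g18070, LOC_Os05g50500 and LOC_Os05g50550, LOC_Os07g06660 and LOC_Os07g06700, and LOC_Os07g08150 and LOC_Os07g08160. No source used here says how reads shared by near-identical neighbours were counted, so the values of such pairs are uncertain. The first pair was not alike in anthers, where LOC_Os01g08440 was higher and LOC_Os01g08460 lower in csa in SD.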

How the data were processed

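RNA sequencing reads had been counted per gene by the authors, and the deposited tables hold raw whole-number counts for 55986 genes in 48 leaf and 16 anther libraries. Aligner, counting program, build and annotation: not given in the sources used here, so no coordinates are printed. Levels are CPM over library totals. Floors and shares cover counting error only.

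Leaves and anthers were fitted separately (edgeR 4.0.16 under R 4.3.3; filterByExpr, TMM scaling, trended negative binomial dispersion, quasi-likelihood F-test, all groups in 1 fit). This left 22095 of 38890 genes with any count in leaves and 25203 of 38063 in anthers. TMM factors in leaves ran from 0.63 to 1.41 and were lowest at 08:00. Benjamini-Hochberg adjustment covered every gene tested in a comparison, with a threshold of 0.05. The SE printed with a log2 fold is the size of that fold divided by the square root of its F statistic. It is thus derived from the test and is not a separate estimate of the spread. For genes with groups at or near 0 counts it depends, like the fold, on the prior count of the fit. Fits were tested on simulated counts. Alternatives were DESeq2 1.42.0, RLE scaling, library totals, no filter, a replicate block, other sets of times, and each library left out in turn.

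The genes and lists were chosen with earlier results of these data known. Genes named are the 10 first by ratio, those at the end of the rule, list members, the largest and smallest SD folds, up to 4 each way with the lowest adjusted p per genotype and anther comparison, and the 6 highest in anthers. The genes called lower at 08:00 than at 12:00, those at the ends of the step from 04:00, LOC_Os02g01590 and the genes singled out for spread were chosen after their values were seen. List identifiers were written from general knowledge: of 52 list genes in 6 lists, 28 had their symbol in the RefSeq table of assembly ASM3414082v1 on the identifier's chromosome, and no identifier of the tables was found there. Other list genes carry no symbol here.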

Additional observations from a re-analysis of the deposited data

Results flagged for a closer look

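All 7 results here are morning genes named for a csa to WT difference in anthers that differed between SD and LD by edgeR's test of that difference. The log2 fold in SD less that in LD was 1.22 for LOC_Os01g16170, 1.54 for LOC_Os01g08440, 1.08 for LOC_Os06g21380 and 1.01 for LOC_Os01g12680. It was -2.49 for LOC_Os03g12700, -0.95 for LOC_Os01g08020 and -1.03 for LOC_Os04g45000. LOC_Os01g12680 held 335 and 328 CPM at 16:00 and 734 and 718 CPM at 04:00 in WT LD. In csa LD it held 199 and 124 CPM at 16:00 and 336 and 415 CPM at 04:00, below WT at each time. It held 223, 292, 220 and 235 CPM in WT SD and 184, 145, 334 and 357 CPM in csa SD. Its log2 fold of csa over WT was -1.09 in LD and -0.08 in SD (edgeR, adjusted p = 0.00035 and 0.662). LOC_Os04g45000 was higher in csa in both photoperiods, by 0.69 in SD and 1.71 in LD on the log2 scale (edgeR, adjusted p = 0.0225 and 0.000331), and its adjusted p for the difference was 0.0417. That call was lost with the replicate block (edgeR, adjusted p = 0.0555) and in 13 of 16 fits without 1 library, and the call of LOC_Os01g08020 in 6 of them.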

How the results depend on the processing

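The 100 genes that differed between SD times and the 100 higher at 08:00 than at the other times were called under every alternative run. Other scalings, no filter and the replicate block changed the sign of no named gene. TMM-scaled CPM kept 88 of the 100 genes in the list, WT alone 91, csa alone 88 and a ratio without the added 0.5 kept 84. DESeq2 called 487 of all genes for the SD genotype difference (edgeR 295), 1136 in LD (756), 203 for genotype by photoperiod in leaves (45) and 123 at SD 08:00 (71), with 11 morning genes higher and 1 lower in LD. With library totals 8 morning genes were lower at SD 08:00 than at 12:00, and 1661 of all genes were called for LD genotype and 9 for genotype by photoperiod. With no filter on low counts 8 morning genes were lower at 08:00 than at 12:00. The leaf genotype calls were then 4 higher in SD, 16 higher and 1 lower in LD, 1 higher and 5 lower for genotype by photoperiod, and 2 each way at SD 08:00, with 978, 1515, 692 and 556 of all genes, and 26 higher and 9 lower for genotype by photoperiod in anthers. With 12:00 as labelled 109 of all genes were called in SD, and without 12:00 353 in LD. The cause of these changes was not tested.

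Leaving out 1 library at a time gave, for morning genes, 2 to 9 higher in csa in LD leaves, 0 to 1 higher in SD (1 without csa SD 16:00 replicate 2) and 0 to 1 lower at SD 08:00 (1 without WT SD 08:00 replicate 2). In anthers it gave 7 to 18 higher in csa in LD, 9 to 20 higher and 1 to 4 lower for genotype by photoperiod (4485 of all genes, 2157 to 4772), and 4 to 9 higher in SD than LD (7274 of all genes, 4128 to 7558). Of all genes it gave 189 to 539 for SD genotype, 30 to 274 at SD 08:00 and 9 to 188 for genotype by photoperiod in leaves. A library left alone in its group was taken to vary as the rest do. LOC_Os04g45000 lost its genotype by photoperiod call in 13 of 16 such anther fits (adjusted p of 0.0605 to 0.108), all but those without WT LD 04:00 replicate 2, WT SD 16:00 replicate 2 or csa SD 16:00 replicate 1. LOC_Os01g08020 lost it in 6 (0.0514 to 0.0656), those without replicate 1 of WT LD 04:00, WT SD 16:00, csa LD 04:00, csa LD 16:00 or csa SD 04:00, or replicate 2 of WT SD 04:00.

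Same-numbered deviations correlated between -0.342 and 0.296 over 276 pairs of leaf groups and between -0.362 and 0.351 over 28 of anther groups. The correlation was above 0.1 in 46 and below -0.1 in 25 of the leaf pairs, and in 9 and 10 of the anther pairs. These values cannot show whether libraries with the same replicate number shared a plot or day. With the replicate number as a block 48 and 10 morning genes were higher and lower at 04:00 in anthers, as without it, and of the named genes 1, LOC_Os04g45000, lost its call (adjusted p = 0.0555).

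The comparison with 12:00 could not be made without the 12:00 libraries. Low night levels were limited by depth, since 3 counts over 4 SD libraries at 20:00 are worth 0.0448 CPM.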
